A study of Mus musculus with 6 samples.

Results

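Imprinted genes of the H19-Igf2 and Kcnq1 domain, on distal mouse chromosome 7, were followed in immortalized mouse embryonic fibroblasts (MEFs) lacking PME-1 and in their wild-type controls. The members are the 7 symbols H19, Igf2, Kcnq1ot1, Cdkn1c, Phlda2, Slc22a18 and Ascl2, taken by name from the count tables. All 7 were present among 53762 symbols, 4 had enough reads to be tested and 3 did not. RNA was sequenced from 3 PME-1 knockout (KO) and 3 wild-type (WT) libraries, with cells collected 24 hours after seeding in high-glucose DMEM. Ppme1 is the gene of PME-1, an enzyme that takes the methyl group off the catalytic subunit of protein phosphatase 2A. Groups follow the sample titles, because the genotype entries of KO libraries 2 and 3 give other numbers after PME. The labels state neither how the knockout was made nor whether the KO line is 1 clone, and they name no separate cultures. The p-values therefore measure only the spread between these libraries, which may be technical.

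Imprinted genes are read from the maternal or the paternal copy only, according to DNA methylation laid down in the germ line. In the H19-Igf2 domain, an insulator bound by CTCF on the maternal copy keeps shared enhancers on H19, while the methylated paternal copy expresses Igf2. In the Kcnq1 domain, the paternal copy makes the long antisense RNA Kcnq1ot1, which silences its neighbours in cis, so that Cdkn1c, Phlda2, Slc22a18 and Ascl2 come from the maternal copy. H19 and Igf2 are abundant in embryonic mesoderm and liver and are shut down after birth in most tissues. Counts per gene do not separate the parental copies.

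The domain carries its own small RNA and its own switch, and their sequences are shown for orientation. The first exon of H19 is the source of miR-675, and both mature arms matched 3 of the 7 H19 transcripts of GENCODE M21 exactly. The arms lie at chr7:142577112-142577133 (5p) and chr7:142577078-142577099 (3p) on the minus strand of GRCm38.p6, with sequences from RefSeq. Capitals mark the seed, bases 2 to 8, which differs between the arms.
mmu-miR-675-5p: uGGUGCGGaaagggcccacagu
mmu-miR-675-3p: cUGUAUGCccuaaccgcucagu
The count row named Mir675 held exactly 1 in each of the 6 libraries while H19 itself varied widely. That row is 1 of 240 that held 1 everywhere, so it was not read as a measurement of the microRNA.

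The Kcnq1ot1 promoter lies in the imprint control region of the Kcnq1 domain and is therefore printed, from chr7:143296498-143296797 on the minus strand of GRCm38.p6 (RefSeq), 250 bases before to 50 after the start. Capitals mark CCAAT, the core of the sites bound by the factor NF-Y, searched on both strands. No other motif was searched.
Kcnq1ot1 promoter: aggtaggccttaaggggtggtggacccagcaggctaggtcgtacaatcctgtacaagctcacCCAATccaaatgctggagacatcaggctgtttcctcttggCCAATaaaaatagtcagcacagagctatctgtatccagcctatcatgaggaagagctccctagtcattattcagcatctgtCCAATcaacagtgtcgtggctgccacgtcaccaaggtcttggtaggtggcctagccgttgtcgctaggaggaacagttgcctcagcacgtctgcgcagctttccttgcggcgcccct
It holds 3 matches, a number reached by 3.37% of the 32851 mouse promoters of the same length, of which 37.4% hold at least 1. The Ascl2 promoter also holds 3. The promoter table matched 5 of the 7 members, all but H19 and Cdkn1c, with 8 promoters in all. The observed over expected ratio of CpG, the dinucleotide that is methylated, was 0.42 for Kcnq1ot1, 0.82 for Phlda2, 0.68 for Ascl2, 0.09 for Slc22a18 and 0.10 to 0.90 over the 4 Igf2 starts, against a median of 0.38 over all promoters (quartiles 0.18 and 0.75). These are features of the reference sequence, and no methylation was measured here.

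Total counts ranged from 34450993 to 43000426 in KO libraries and from 38155189 to 44116310 in WT libraries. Ppme1 was at 14.9 to 18.9 CPM (counts per 1000000, scaled with TMM factors) in KO libraries and at 78.5 to 86.6 CPM in WT libraries. On the Y chromosome, Uty, Kdm5d, Eif2s3y and Ddx3y were at 19.5 to 71.8 CPM in KO libraries and had 0 counts in WT libraries, and Xist was at 0.118 to 0.31 CPM in KO and 370 to 490 CPM in WT, so that genotype cannot be told apart from the sex of the cells. Of 10 fibroblast markers 9 averaged at least 1 CPM, with sums of 9108 to 10660 CPM in KO and 11530 to 17710 CPM in WT libraries, while Fap was at or near 0. Col1a1 (0.507-fold, edgeR adjusted p = 0.0209), Pdgfrb (0.415-fold, 0.023) and S100a4 (0.347-fold, 0.0425) were lower in KO. Thy1 (2.82-fold, 0.134) and Dcn (4.60-fold, 0.225) were higher in every KO library than in any WT library and were not called. Col1a2, Col3a1, Pdgfra and Vim were not called. Single markers were named after their values were seen. The 5 epithelial markers summed to 30.5 to 66.4 CPM in KO and 6.63 to 29.8 CPM in WT libraries, most of it Krt19 and with Krt5 and Krt14 at 0 in all, and the 4 endothelial markers to 2.203 to 3.44 CPM in KO and 0.786 to 2.08 CPM in WT libraries, where Tek was higher in KO (7.98-fold, edgeR adjusted p = 0.0241) and Kdr was not called (edgeR adjusted p = 0.869), and their part in the results was not tested. KO 1 and WT 1 stood apart from their groups: across genes, the Pearson r of log2 CPM was 0.992 between KO 2 and KO 3 and 0.971 and 0.972 for KO 1 with them, and 0.993 between WT 2 and WT 3 and 0.977 and 0.978 for WT 1 with them. Results are therefore also given without these libraries.

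H19 RNA was higher in all 3 KO libraries than in any WT library. H19 (ENSMUSG00000000031.16) is a spliced noncoding RNA made from 142575529 to 142578143 on the minus strand of chromosome 7 (GRCm38). It had 18477, 7981 and 6060 counts, or 478, 187 and 178 CPM, in KO libraries 1 to 3, against 917, 2604 and 2460 counts, or 25.4, 60.2 and 56.5 CPM, in WT libraries 1 to 3. The groups did not overlap, KO 1 was far above the other KO libraries and WT 1 was the lowest of all. The mean was 281 ± 171 CPM in KO and 47.4 ± 19.1 CPM in WT (SD, n = 3 each), a 5.93-fold higher level in KO (log2 fold change 2.57, SE 0.51, 95% interval 1.37 to 3.77, edgeR quasi-likelihood adjusted p = 0.0302). The lowest KO library was still 2.96-fold above the highest WT library. By CPM per kb of exon, H19 stood at rank 212 to 714 among the genes with counts in KO libraries and at rank 2453 to 5095 in WT libraries.

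The size of the H19 difference depended on the libraries numbered 1. Without KO 1 it was 3.85-fold (adjusted p = 0.0323), and without both KO 1 and WT 1 it was 3.13-fold (adjusted p = 4.28e-09 in edgeR), where 48.0% of all genes tested were called. With KO 2, KO 3, WT 1, WT 2 or WT 3 left out, the fold was between 4.87 and 7.12 and the edgeR adjusted p between 0.0548 and 0.111, above the threshold of 0.05, so that the call was lost. H19 is known to be abundant in muscle precursors and fetal liver. The list of 8 muscle markers summed to 0.441 to 1.19 CPM in KO and 0.555 to 1.04 CPM in WT. Of these, Myod1, Myf5, Myog, Pax7 and Ckm had 0 counts in every library. Des was highest in KO 1 (1.11 CPM), against at most 0.739 CPM in WT libraries. Myh3 had 0, 4 and 6 counts in KO libraries 1 to 3 and 0 in WT. Acta1 reached 0.264 CPM in KO and 0.444 CPM in WT. The 6 hepatocyte markers summed to at most 0.118 CPM in KO and to 0 in WT. In bulk RNA, fewer expressing cells and less RNA per cell cannot be told apart.

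Igf2, the fetal growth factor on the other side of the insulator, was close to the detection limit in both genotypes. It lies from 142650766 to 142666816 on the minus strand, with its start 88.7 kb from that of H19. The counts were 0, 8 and 0 in KO libraries 1 to 3 and 0, 0 and 10 in WT libraries 1 to 3. A single library of each genotype held reads, the groups overlapped, and no fold change was computed. Taken as a count of reads, a 0 allows up to 3 counts, or 0.0689 to 0.0881 CPM depending on the library. The overlapping gene model Gm49394, which spans Igf2 on the same strand, held 15, 20 and 9 counts in KO and 6, 8 and 14 in WT libraries, and reads of the 2 models cannot be assigned with certainty. Summed over both, KO libraries had 0.388, 0.657 and 0.264 CPM and WT libraries 0.166, 0.185 and 0.551 CPM, again overlapping. The antisense Igf2os, Mir483 inside Igf2 and the neighbouring insulin gene Ins2 had 0 counts in every library.

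Zeros beside double-digit counts, as seen for Igf2 in WT libraries and for Phlda2 in both groups, were common in these tables and limit what a low count shows. Of 1183 genes with a mean of 10 to 20 counts over the 6 libraries, 29.1% held a 0 and a value of at least 10 in libraries of the same group. Phlda2 was among these genes, while Igf2 averaged fewer counts and lay outside that range. How the counts were assigned to genes is not given in the sources used here, and whether each value is a plain count of reads could not be settled, so the limits given for a 0 hold only if it is.

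Kcnq1ot1, the antisense RNA of the Kcnq1 domain, differed between the genotypes by less than the spread between libraries. It runs over 93092 bases, from 143203458 to 143296549 on the minus strand, inside Kcnq1. It had 64, 104 and 52 counts, or 1.66, 2.44 and 1.53 CPM, in KO libraries 1 to 3, against 94, 40 and 72 counts, or 2.61, 0.924 and 1.65 CPM, in WT libraries 1 to 3. Both the highest and the lowest value belonged to WT libraries, so the KO values lay inside the WT range. The log2 fold change was 0.12 (SE 0.46, adjusted p = 0.912), with a 95% interval from 0.514-fold to 2.30-fold. Without both KO 1 and WT 1 the log2 fold change was 0.62 (SE 0.45, edgeR adjusted p = 0.29). Kcnq1, a potassium channel gene on the opposite strand, had 0, 0 and 11 counts in KO and 4, 7 and 4 in WT libraries, and was not tested. The library kit keeps strand, per the labels, but the strand setting of the counting is unknown, so reads of Kcnq1 and Kcnq1ot1 may be mixed.

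Cdkn1c, which encodes the cell cycle inhibitor p57, was higher in the KO libraries. It lies from 143458339 to 143461050 on the minus strand. It had 891, 625 and 471 counts, or 23.1, 14.7 and 13.8 CPM, in KO libraries 1 to 3, against 172, 321 and 375 counts, or 4.77, 7.42 and 8.61 CPM, in WT libraries 1 to 3. As with H19, KO 1 was the highest and WT 1 the lowest, and the groups did not overlap, with the lowest KO library 1.61-fold above the highest WT library. The mean was 17.2 ± 5.10 CPM in KO and 6.93 ± 1.96 CPM in WT (SD, n = 3 each), a 2.48-fold higher level in KO (log2 fold change 1.31, SE 0.30, 95% interval 0.59 to 2.03, edgeR adjusted p = 0.0495). This call stood at the edge of the threshold. It was lost when any 1 library was left out, with an edgeR adjusted p of 0.0775 to 0.155 and a fold of 2.05 to 2.81, and with 4 other choices of scaling or filter. Without both KO 1 and WT 1 the fold was 1.78 (edgeR adjusted p = 0.00103), where 48.0% of all genes tested were called.

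Phlda2, a growth-restraining gene known from the placenta, was scattered within both groups. It had 0, 28 and 23 counts in KO libraries 1 to 3 and 24, 0 and 11 in WT libraries 1 to 3. The 2 libraries at 0 came from different genotypes, and the groups overlapped. The levels were 0.444 ± 0.385 CPM in KO and 0.306 ± 0.336 CPM in WT (SD, n = 3 each), with a log2 fold change of 0.55 (SE 1.51, edgeR adjusted p = 0.876) and a 95% interval from -3.04 to 4.14. Without both KO 1 and WT 1 the log2 fold change was 2.37 (SE 1.15, edgeR adjusted p = 0.115). Slc22a18, a transporter gene, had 0 counts in each KO library and 0, 8 and 9 counts in WT libraries 1 to 3, and was not tested. Both genotypes included libraries at 0, so the groups overlapped. Ascl2, a transcription factor of the trophoblast, had 0 counts in all 6 libraries, which allows up to 0.108 CPM by the 95% counting interval. Of 8 trophoblast markers 6 also had 0 counts everywhere, and Krt7 and Eomes gave the rest, with sums of 0.5432 to 1.997 CPM in KO and 0.323 to 0.499 CPM in WT libraries.

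**Figure D1:**
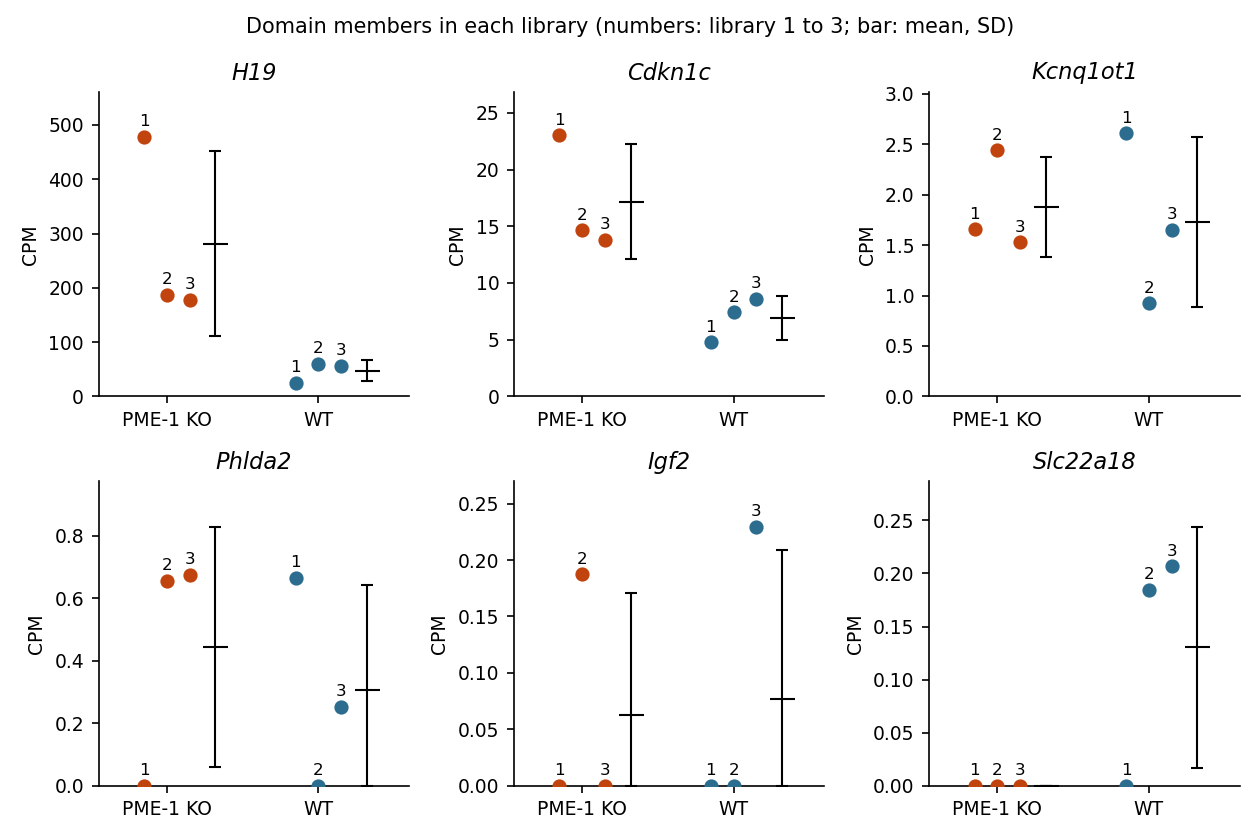
CPM of 6 members in each PME-1 KO (left) and WT (right) library, with library numbers above the points; the bars give the mean and SD of 3 libraries, cut at 0, and each panel has its own axis. H19 and Cdkn1c were higher in every KO library than in any WT library, while the other 4 overlapped.

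Among the 4 members tested, 2 rose and 0 fell, where 7.4% of all 15223 genes tested were called, 3.55% as higher and 3.86% as lower. H19 and Cdkn1c were also the 2 tested members whose groups did not overlap, which held for 30.0% of all genes tested and, with KO higher, for 14.6%. The median log2 fold change was 0.01 over all genes tested. With 4 members, these shares say little about the domain as a whole. DESeq2 called the same 2 members, with adjusted p = 8.25e-07 for H19 and 0.000748 for Cdkn1c, where it called 15.8% of all genes with an adjusted p. A fit with the replicate number as a block called 0 of the members and 0.0526% of all genes.

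**Figure D2:**
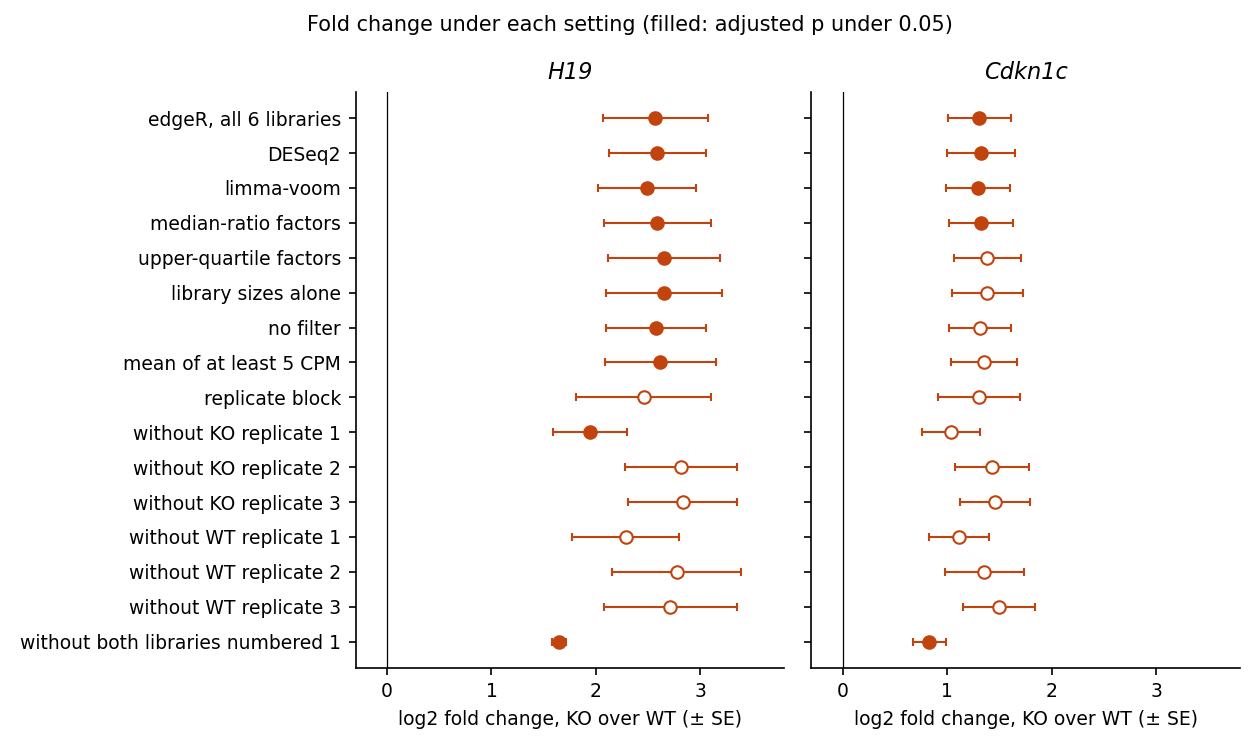
Log2 fold change (KO over WT, ± SE) of H19 and Cdkn1c under each tool, scaling, filter and left-out library, with filled points at an adjusted p under 0.05. All values were above 0, from 1.65 to 2.83 for H19 and from 0.83 to 1.49 for Cdkn1c.

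The order of the members by CPM per kb of exon was led by H19 in both genotypes, with 114 ± 69.4 in KO and 19.3 ± 7.75 in WT. Cdkn1c came next, with 8.43 ± 2.50 in KO and 3.40 ± 0.963 in WT, and the ranges of these 2 members did not touch within either group. Phlda2 followed with 0.396 ± 0.343 in KO and 0.273 ± 0.300 in WT. Kcnq1ot1 stood at 0.0201 ± 0.00531 in KO and 0.0186 ± 0.00907 in WT, and Igf2 reached at most 0.0328 in KO and 0.0401 in WT. Slc22a18 was at 0 in KO and at 0.0768 ± 0.0668 in WT. The levels of Phlda2, Slc22a18, Kcnq1ot1 and Igf2 overlapped between neighbours in this order, because each of these members except Kcnq1ot1 had libraries at 0. The CPM of H19 was 20.7, 12.8 and 12.9 times that of Cdkn1c in KO libraries 1 to 3 and 5.33, 8.11 and 6.56 times in WT libraries 1 to 3. The groups did not overlap in this ratio, which was not tested, and KO 1 had the highest.

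The other genes of the stretch were described beside the members. From Ctsd to Dhcr7 the tables hold 50 further symbols, of which 19 had 0 counts in all libraries and 19 were tested. Of these 19, 1 rose, 0 fell and 18 did not pass, where 7.4% of all genes tested were called. Their median log2 fold change was -0.19. The riser was Syt8, a synaptotagmin gene whose start lies at -143.3 kb from that of H19, on the side away from Igf2, with 49, 46 and 29 counts in KO libraries 1 to 3 and 6, 10 and 13 in WT libraries 1 to 3 (log2 fold change 2.18, SE 0.48, edgeR adjusted p = 0.0419); it averaged under 1 CPM and was named after its values were seen. Its groups did not overlap. It was not called without a filter on low counts (edgeR adjusted p = 0.063), nor with any 1 library left out (0.08 to 0.16), nor without both KO 1 and WT 1 (0.0523). The fold was 4.02 to 5.27 with 1 library left out and 3.62 without both, against 4.53 with all libraries.

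**Figure D3:**
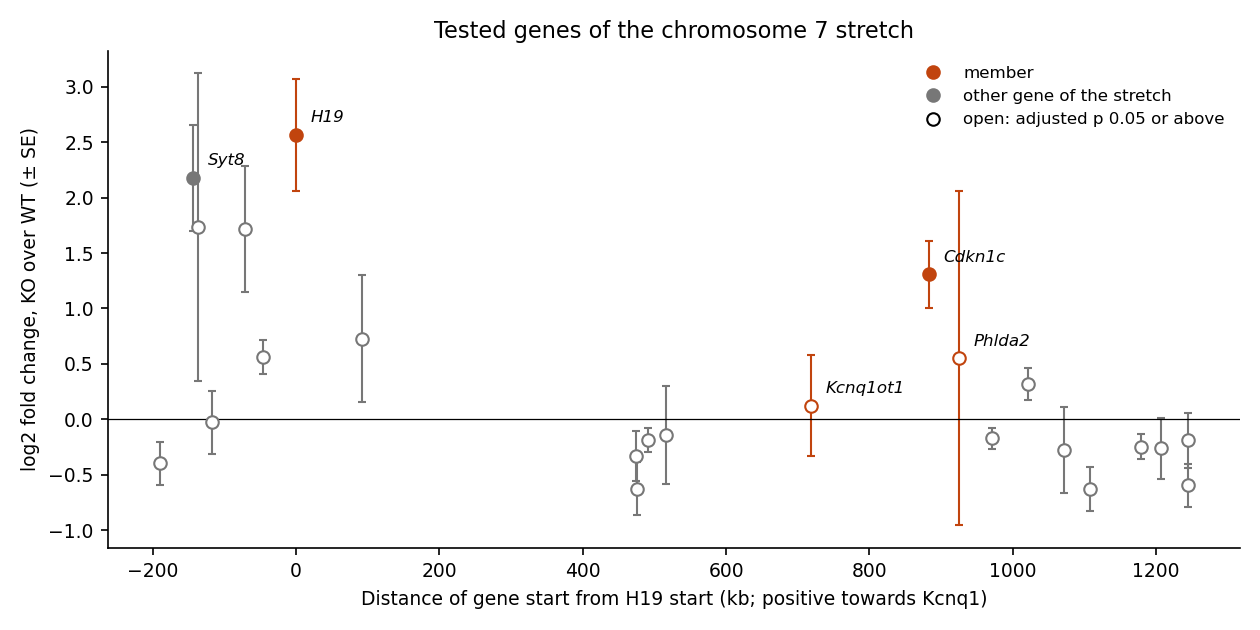
Log2 fold change (KO over WT, ± SE) of each tested gene of the stretch by the distance of its start from that of H19 in kb, with members in orange and filled points at an adjusted p under 0.05. H19 (2.57), Syt8 (2.18) and Cdkn1c (1.31) were called, and the tested genes between H19 and Cdkn1c were not.

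Between the called members lay genes that did not pass. Cd81, a tetraspanin gene, averaged 189 ± 44.7 CPM in KO and 238 ± 50.3 CPM in WT (edgeR adjusted p = 0.443), and Tssc4 32.5 ± 1.05 CPM in KO and 37.1 ± 2.63 CPM in WT (adjusted p = 0.372). Beyond Phlda2, the histone chaperone gene Nap1l4 averaged 131 ± 3.62 CPM in KO and 148 ± 7.94 CPM in WT (adjusted p = 0.358). Next to H19, the mitochondrial ribosomal protein gene Mrpl23 averaged 20.4 ± 2.89 CPM in KO and 13.8 ± 0.781 CPM in WT (adjusted p = 0.0823). Prr33, at -71.4 kb from H19, averaged 0.611 ± 0.199 CPM in KO and 0.183 ± 0.0634 CPM in WT (edgeR adjusted p = 0.133). The groups overlapped for Cd81. They did not for Tssc4 and Nap1l4, lower in KO, nor for Mrpl23 and Prr33, higher in KO. Elsewhere in the stretch, they also did not overlap for Syt8, higher in KO. The same held for R74862, Tnfrsf23, Osbpl5, Mrgpre and Dhcr7, all lower in KO and not called. Groups that did not overlap were found for 30.0% of all genes tested. Apart from the members, the genes named here were chosen after their values were seen, from the tested genes of the stretch (SD, n = 3 each).

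Among 18 listed genes that receive or handle the IGF signal, 15 were tested, 2 rose, 0 fell and 13 did not pass, with a median log2 fold change of -0.05, where 7.4% of all genes tested were called. Irs1, an adaptor that carries the signal of the IGF1 and insulin receptors, had 76.7, 81.5 and 77.7 CPM in KO libraries 1 to 3, against 47.8, 45.8 and 47.3 CPM in WT libraries 1 to 3. Its groups lay far apart, with a 1.68-fold higher level in KO (log2 fold change 0.74, SE 0.09, edgeR adjusted p = 0.00592). Grb10, an imprinted adaptor that restrains the same receptors, had 417, 492 and 475 CPM in KO libraries 1 to 3, against 267, 216 and 213 CPM in WT libraries 1 to 3. Again no library of 1 genotype reached the other, with a 1.99-fold higher level in KO (log2 fold change 0.99, SE 0.14, edgeR adjusted p = 0.00894). Its call was lost without WT 2 (1.92-fold, edgeR adjusted p = 0.0582) and without WT 3 (1.91-fold, edgeR adjusted p = 0.0622). Igf2r, the receptor that clears IGF2, averaged 264 ± 25.5 CPM in KO and 384 ± 42.7 CPM in WT and did not pass (adjusted p = 0.058). Of the RNA-binding proteins that bind Igf2 and H19 RNA, Igf2bp3 averaged 70.4 ± 13.5 CPM in KO and 42.4 ± 4.24 CPM in WT (edgeR adjusted p = 0.0513). Igf2bp1 averaged 79.2 ± 18.95 CPM in KO and 74.0 ± 16.6 CPM in WT (edgeR adjusted p = 0.854). Igf2bp2 went the other way from Igf2bp3, with 218 ± 16.1 CPM in KO and 260 ± 8.60 CPM in WT (edgeR adjusted p = 0.22). None of these passed. Igf2r, Igf2bp3, Igf2bp1 and Igf2bp2 were chosen after their values were seen.

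Factors that set or keep imprints did not pass the test. Of 30 listed, 27 were tested, and 0 rose and 0 fell by edgeR, where 7.4% of all genes tested were called. An unadjusted edgeR p under 0.05 was reached by 5 of the 27, against 3378 of all 15223 genes tested. The median log2 fold change was -0.12, with 8 of the 27 above 0. Limma-voom called 0 and DESeq2 called 4, where DESeq2 called 15.8% of all genes with an adjusted p. Ctcf, which binds the H19 insulator, averaged 124 ± 24.5 CPM in KO and 129 ± 10.5 CPM in WT (SD, n = 3 each, edgeR adjusted p = 0.901). Dnmt1, the maintenance DNA methyltransferase, averaged 371 ± 35.9 CPM in KO and 309 ± 23.8 CPM in WT (edgeR adjusted p = 0.267). Uhrf1 (log2 fold change -0.444, edgeR adjusted p = 0.0851) and Tet3 (-0.465, edgeR adjusted p = 0.12) were lower in every KO library than in any WT library. So were Zfp57, Trim28, Setdb1, Ehmt1 and Ezh2, and none of these passed. Groups that did not overlap were found for 30.0% of all genes tested. The listed genes named here were chosen after their values were seen.

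Of 15 cyclin-dependent kinase inhibitors, kinases and cyclins, 0 rose, 1 fell and 14 did not pass, where 7.4% of all genes tested were called. Their median log2 fold change was -0.27. Cdk2, a kinase that p57 inhibits, had 85.4, 90.0 and 85.5 CPM in KO libraries 1 to 3, against 113, 114 and 115 CPM in WT libraries 1 to 3 (log2 fold change -0.39, SE 0.09, edgeR adjusted p = 0.0449). Its call was lost with each library left out, where the log2 fold change was -0.41 to -0.37. Without both KO 1 and WT 1 the log2 fold change was -0.39 (edgeR adjusted p = 0.000347). In that fit 12 of the 15 listed genes and 48.0% of all genes tested were called. Cdkn1a, which encodes the related inhibitor p21, had 103, 32.6 and 31.4 CPM in KO libraries 1 to 3 and 37.3, 85.6 and 80.8 CPM in WT libraries 1 to 3 (edgeR adjusted p = 0.813). KO 1 was high and WT 1 low within their groups, as for Cdkn1c, but here the groups overlapped, and Cdkn1a was chosen after its values were seen.

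Of 9 PHLDA and bHLH relatives of Phlda2 and Ascl2, 5 were tested. Of these 0 rose, 1 fell and 4 did not pass, where 7.4% of all genes tested were called. Their median log2 fold change was -0.41. Tcf12, a bHLH partner protein gene on chromosome 9, had 140, 153 and 152 CPM in KO libraries 1 to 3, against 286, 303 and 308 CPM in WT libraries 1 to 3 (log2 fold change -1.01, SE 0.10, edgeR adjusted p = 0.00282). Every KO library lay below every WT library.

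**Figure D4:**
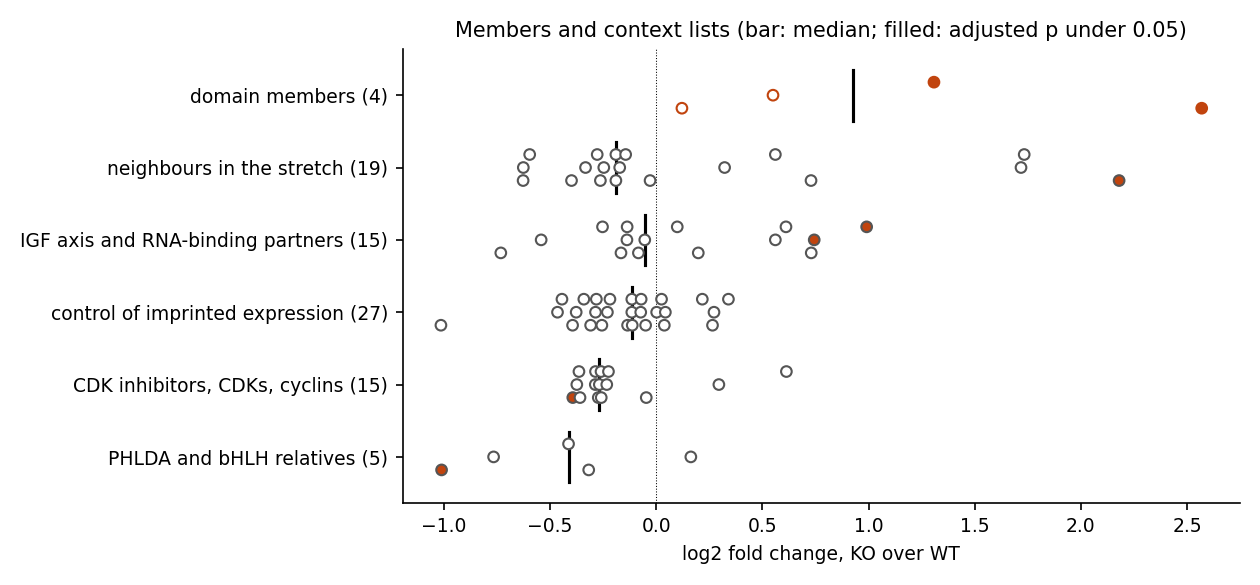
Log2 fold change (KO over WT) of the tested genes of the domain and of 5 related lists, with the number tested in brackets, the median as a bar and filled points at an adjusted p under 0.05. The list medians ran from -0.41 to -0.05, and H19 at 2.57 lay furthest to the right.

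Over the 6 libraries, KO 1 and WT 1 stood at opposite ends for H19 and Cdkn1c, and WT 1 and WT 2 did for Kcnq1ot1. The genes most like each member, given as a description, were those with the highest Pearson r of log2(CPM + 0.5) over these libraries. For H19 they were Galt, an enzyme of galactose breakdown (r = 0.998), the class I antigen gene H2-D1 (r = 0.998) and Oplah, an enzyme of glutathione turnover (r = 0.998), among 10066 genes. Oplah had 62.0, 21.8 and 20.7 CPM in KO libraries 1 to 3 and 3.47, 8.20 and 7.51 CPM in WT libraries 1 to 3. For Cdkn1c they were Tmem176a (r = 0.998), Cep85 (r = 0.997) and Stn1 (r = 0.996). For Kcnq1ot1 they were Diaph2 (r = 0.962), Zbtb10 (r = 0.942) and Dync1h1 (r = 0.941), among 10067 genes. None of these 9 genes lies on chromosome 7, but the share of that chromosome among the genes compared was not counted, so nothing is read from this.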

How the data were processed

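RNA from 3 KO and 3 WT libraries was prepared with a directional kit, per the labels' protocols. The deposited files hold raw counts per gene symbol, and the authors used Trim Galore 0.6.6 and HISAT2 2.2.1, per the submitters' processing notes. Those notes name hg38 although the symbols are mouse symbols. The sources used here name no counting program or strand setting, so coordinates come from GENCODE M21 (GRCm38), in which 92.73% of symbols were found. Exactly 240 rows hold 1 in every library, so whether all values are plain read counts is unsure.

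The test was that of edgeR 4.0.16 under R 4.3.3 (genes kept by filterByExpr, TMM, robust quasi-likelihood, Benjamini-Hochberg over 15223 genes, threshold 0.05), a procedure tested on simulated data. DESeq2 1.42.0, limma 3.58.1 (voom), other scalings and filters and left-out libraries were alternatives. CPM use TMM library sizes. The limit for a count of 0 covers counting error only. Named were all members, list genes past the threshold with at least 1 CPM (at most 6 a list) and the 3 genes most like each member; others are said to be chosen after their values were seen. The members and lists were chosen with earlier results of these data known.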

Additional observations from a re-analysis of the deposited data

How the results depend on the processing

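H19 and Cdkn1c stayed higher in KO under every alternative run. The number of members called was 2 with DESeq2, limma-voom, median-ratio factors and without both libraries numbered 1, 1 with upper-quartile factors, library sizes alone, no filter or the 5 CPM filter, and 0 to 1 with 1 library left out. Leaving out 1 library gave a log2 fold change of 1.94 to 2.83 for H19 and of 1.04 to 1.49 for Cdkn1c. For Cdkn1c it was 1.38 with upper-quartile factors (adjusted p = 0.0547), 1.38 with library sizes alone (0.0653), 1.31 with no filter (0.0523) and 1.35 with the filter that keeps genes averaging 5 CPM or more (0.0539). Kcnq1ot1 turned to -0.11 without KO 2 and -0.19 without WT 2 (-0.19 to 0.55 with 1 library left out, 0.62 without both libraries numbered 1), and Phlda2 to -0.044 without WT 2 (-0.044 to 1.78 with 1 library left out, 2.37 without both). The causes were not tested.

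Over all genes 1127 were called, against 2406 with DESeq2, 7408 without both libraries numbered 1 and 332 to 1216 with 1 library left out. In the same order, the neighbours gave 1 (higher), 4 (2 higher, 2 lower), 8 (2 higher, 6 lower) and 0 to 1 (the 1 lower, without WT 1; 0 with no filter and 0 for genes averaging 5 CPM or more), the IGF list 2, 5, 11 and 1 to 4 (4 with upper-quartile factors and 4 with library sizes alone), the imprint control list 0, 4, 17 and 0, the kinase list 1, 2, 12 and 0 (0 with upper-quartile factors, library sizes alone or no filter) and the PHLDA and bHLH list 1, 2, 4 and 1.

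Libraries with the same number did not deviate together (r = -0.512, -0.307 and -0.223 for numbers 1 to 3), so the numbers were not taken as pairs. With the replicate number as a block, 8 genes were called in all, 0 members and 0 genes of each list, with a log2 fold change of 2.46 for H19 (adjusted p = 0.262) and 1.30 for Cdkn1c (0.315). Igf2, Slc22a18 and Ascl2 were too low to test at these depths.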
